A study of Mus musculus with 6 samples.

Results

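The 59 small RNAs described here are the tRNA-derived fragments (tRFs) of the tRNAs for aspartate, asparagine, histidine and tyrosine, out of 2334 small RNAs listed in the series. They were chosen by name alone, as every tRF whose name carries Asp (19), Asn (12), His (16) or Tyr (12), and no measured value entered that choice. Small RNAs were sequenced from the outer coats of the mouse eye, taken as a single piece of retinal pigment epithelium (RPE) with choroid and sclera. In the choroidal neovascularization (CNV) group, eyes of male mice aged 7 to 8 weeks received 25 laser burns (532 nm, 100 mW, 0.1 s, 50 µm) around the optic disc and were collected 7 days later. Control eyes came from male mice of the same age that had no laser. Each group had 3 libraries (n = 3), each made from the tissue of 4 pooled eyes. The sources used here do not give strain or genotype, and a pool can hide differences between its eyes.

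The 4 tRNAs share a chemical mark. In each of them the first base of the anticodon, called the wobble position because its pairing with the codon is loose, is a guanosine that can be exchanged for queuosine. The exchange is made by the enzyme tRNA-guanine transglycosylase from queuine, a base that mammals take up from food and gut microbes, and the mark is known to affect decoding speed and to shield the anticodon loop from ribonucleases such as angiogenin. Cuts in the anticodon loop give the longer pieces named tiRNAs, and cuts elsewhere give shorter tRFs. The libraries counted fragments and did not measure queuosine itself.

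The mark sits in the same place in the nuclear and the mitochondrial forms of these tRNAs. RefSeq's annotation of GRCm38.p6 lists 16 nuclear tRNA genes for Asp with anticodon GTC, 13 for Asn with GTT, 10 for His with GTG and 10 for Tyr with GTA. All 59 fragment names carry these anticodons, which the mitochondrial tRNAs share, and the names do not say from which genome or which end of the tRNA a fragment comes. The mitochondrial tRNA sequences of the GENCODE M21 annotation (GRCm38) are shown to make the shared anticodon visible, with the anticodon in capitals and queuosine replacing its first base in the RNA. They are reference sequences and not the measured fragments.

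mt-Td (Asp, chrM:6942-7011, plus strand): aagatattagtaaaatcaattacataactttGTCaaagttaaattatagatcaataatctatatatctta
mt-Tn (Asn, chrM:5089-5159, minus strand): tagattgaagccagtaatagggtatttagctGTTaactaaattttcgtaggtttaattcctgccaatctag
mt-Th (His, chrM:11546-11612, plus strand): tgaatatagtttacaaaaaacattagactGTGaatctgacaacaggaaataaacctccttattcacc
mt-Ty (Tyr, chrM:5260-5326, minus strand): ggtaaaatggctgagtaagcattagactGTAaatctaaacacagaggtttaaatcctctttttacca

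The libraries held 5057142 to 12839386 counts, with control replicate 2 the deepest, and 3424 to 10571 of these fell on the 59 tRFs. All 59 were counted in every library. Levels are given in CPM, as counts per 1000000. "CPM of all counts" divides by the library's total count, and TMM-scaled CPM divides by that total corrected with trimmed mean of M-values factors. The RPE microRNAs miR-204 and miR-211, summed over both arms, were present in all pools, at 6841 to 7042 TMM-scaled CPM in control and 4573 to 6546 in CNV, with 4 of 4 fold changes negative. In the same unit the photoreceptor markers summed to 49378 to 75839 CPM in control and 24753 to 49508 in CNV, and all 4 had negative fold changes. The 5 neuron markers summed to 13874 to 21058 and 7831 to 12498 CPM, with 5 of 5 fold changes negative. The 6 leukocyte markers summed to 897 to 1030 and 1339 to 1936 CPM, with 5 positive fold changes and a negative one for miR-150-5p (log2 -0.48). No marker was at 0, and none of those 4 lists had a member past the adjusted threshold. Marker levels of several cell types thus differed in mean between the groups, and their part in the results was not tested. In bulk tissue, fewer cells of a type and less RNA per cell cannot be told apart. A p-value here weighs the group difference against the spread between pools, part of which may be technical. The labels do not say whether pools shared mice, so that spread may not cover the differences between mice.

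Most of these fragments were rare, as were most small RNAs of the series. Their median level over the 6 libraries was 4.38 CPM of all counts. It was 5.67 CPM for the 401 tRFs of other tRNAs and 0.73 CPM for all small RNAs. Under 10 CPM lay 1777 of all 2334 small RNAs, 253 of the 401 other tRFs and 45 of the 59. The exception among the 59 was 2 fragments of tRNA-His, each over 100 CPM, while 9 of the 16 tRF-His also lay under 10 CPM. The summed level of all tRF-His was 571 ± 175 CPM of all counts in control (SD) and 608 ± 124 in CNV. Among the 20 amino acids listed His ranked 6 by mean level in control and 5 in CNV, Asp 16 and 15, and Tyr 17 and Asn 19 in both. The 2 fragments over 100 CPM, tRF-His-GTG-022 and tRF-His-GTG-023, held between 46.6% and 61.8% of the counts of all 59 in each library. The lengths of the fragments were not used here, so levels are compared as counts and not per length.

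**Figure D1:**
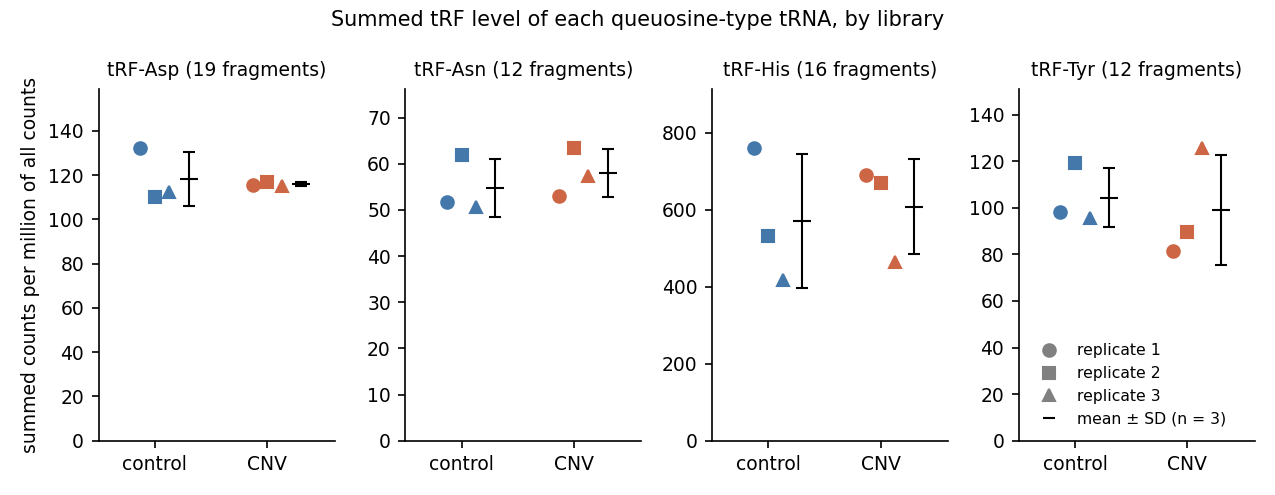
Summed level of the tRFs of each tRNA in each library, as CPM of all counts (linear axes from 0; each panel has its own scale). Points are the 3 control and 3 CNV pools, and bars give mean ± SD. The groups overlap in all 4 panels.

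The comparison of CNV with control asked whether any of these fragments differ after laser injury. None passed the test. With a filter on low counts 51 of the 59 could be tested, and 0 of these passed the quasi-likelihood test of edgeR (Benjamini-Hochberg adjusted over all 997 small RNAs tested, of which 0.301% passed). The smallest adjusted p of a member was 0.235. DESeq2 also called 0 of the 51 (smallest adjusted p 0.182, with no adjusted p for 13 of them), against 4.62% of small RNAs with an adjusted p, and limma-voom 0 (smallest 0.244) against 0.301%.

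At an unadjusted p under 0.05 there were 5 members in edgeR's test (9.80%), against 17.8% of all small RNAs tested. Of the 5, 4 were higher in CNV and 1 lower, where 10.8% and 6.92% of all small RNAs were. DESeq2 gave 2 of the 51, against 17.2% of all small RNAs, and limma-voom 4, against 17.4%. In TMM-scaled CPM, the CNV pools lay entirely above the control pools for 3 members and entirely below for 3. That is 5.88% each, against 11.4% and 8.93% of all small RNAs, 20.4% in either direction. A share under the background is no result about these fragments.

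The fold changes were small. The log2 fold changes of the 51 ran from -0.64 to 0.87, with a median of 0.18 against 0.05 for all small RNAs and 0.06 for the other tRFs. Of the 51, 34 (66.7%) were positive, where 53.6% of all small RNAs were. When libraries were scaled by total counts alone, the median of all small RNAs moved to -0.11, that of the members to 0.02, and 27 of 51 were positive. By tRNA the medians were 0.21 for His, 0.19 for Asn, 0.12 for Asp and 0.06 for Tyr.

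These values limit how large a change could have gone unseen. The 95% confidence interval of the log2 fold change had a median half-width of 0.69. For 28 of the 51 it lay entirely between a 2-fold decrease and a 2-fold increase, among them all 9 tested Tyr fragments. For 19 it reached a 2-fold increase and for 5 a 2-fold decrease, so changes of that size were not excluded for those fragments. They include the deepest, tRF-His-GTG-022.

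**Figure D2:**
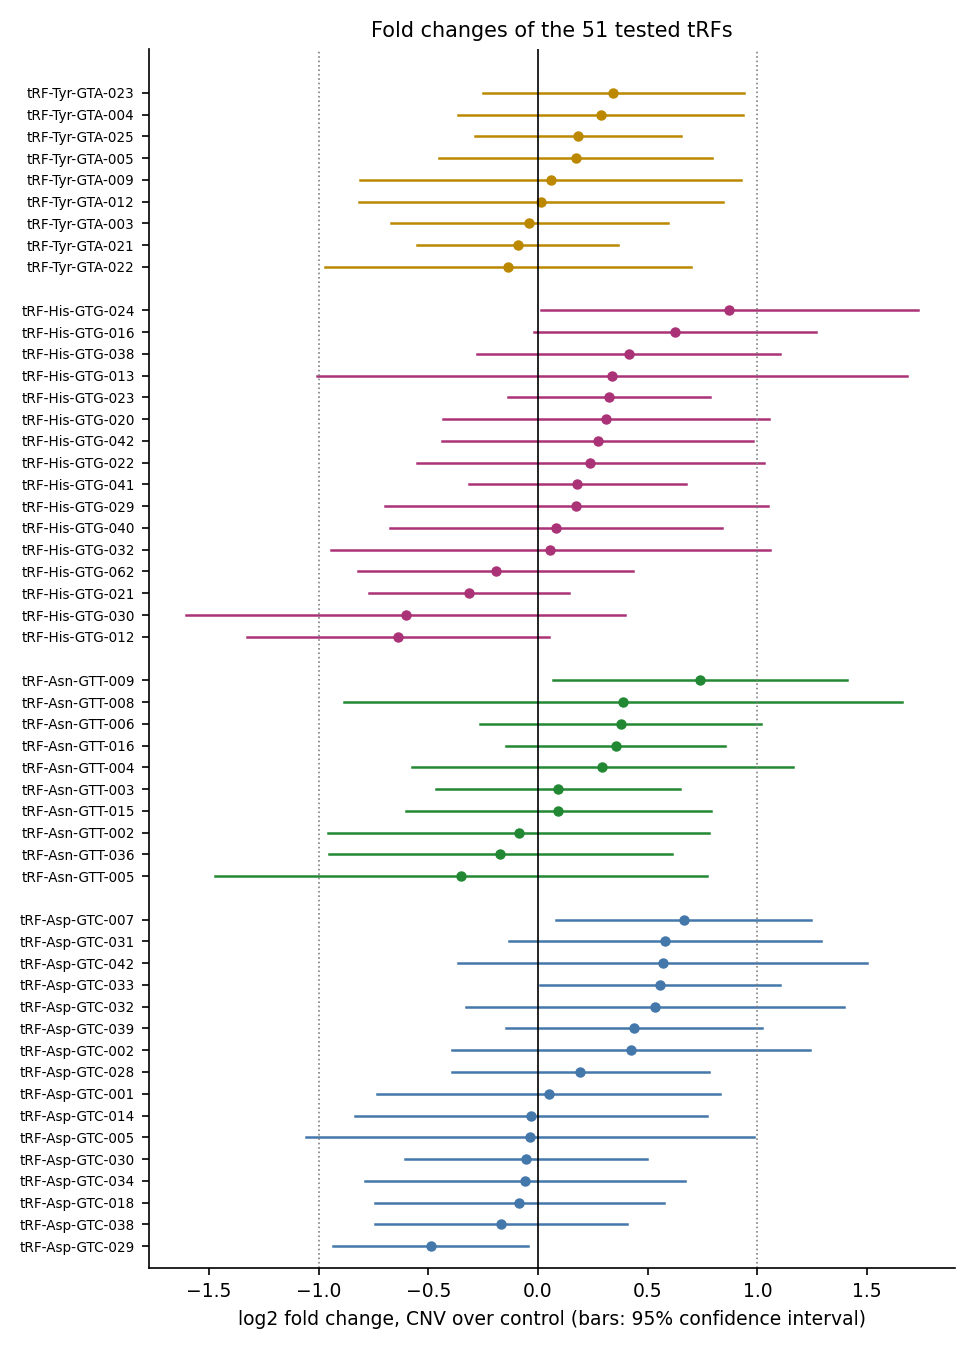
Log2 fold change of CNV over control for the 51 tested tRFs, grouped by tRNA, with 95% confidence intervals from edgeR's fit. Dotted lines mark 2-fold changes. The point estimates run from -0.64 to 0.87, and none passed the adjusted threshold.

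Histidine tRNA gave the most abundant fragments. The tRNA is unusual in carrying an additional guanosine at its 5′ end, added after transcription, by which its synthetase recognizes it. All 16 tRF-His were tested, 12 with a positive and 4 with a negative fold change. The level of tRF-His-GTG-022 was 449, 220.0 and 192 TMM-scaled CPM in control replicates 1 to 3 and 426, 363 and 227 in CNV replicates 1 to 3. The control pools thus spread over 2.34-fold and enclosed the CNV range. The means were 287 ± 141 and 339 ± 102 CPM, a log2 fold change of 0.24 (SE 0.35, 95% interval -0.55 to 1.03, edgeR adjusted p 0.786). Its sign rested on single pools, since the value was 0.72 without control replicate 1 and -0.04 without control replicate 2 (-0.03 without control replicate 3).

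The next fragment, tRF-His-GTG-023, was steadier between control pools. It was at 132, 165 and 134 CPM in control and 204, 201 and 136 in CNV. CNV replicates 1 and 2 lay above all controls and CNV replicate 3 among them, with a log2 fold change of 0.33 (SE 0.20, interval -0.14 to 0.78, edgeR adjusted p 0.469). The counts of tRF-His-GTG-022 were 3.41 times those of tRF-His-GTG-023 in control replicate 1, 1.33 and 1.43 times in the other controls, and 1.67 to 2.08 times in the CNV pools. The excess of the former in control replicate 1 was therefore not shared by its neighbour.

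A similar split of the CNV pools was seen in 2 rarer His fragments. The level of tRF-His-GTG-016 was 17.3, 15.2 and 18.4 CPM in control and 34.2, 27.9 and 16.2 in CNV (log2 0.62, SE 0.28, edgeR adjusted p 0.287). The values of tRF-His-GTG-024 were 19.0, 10.8 and 10.2 CPM in control and 32.7, 27.5 and 12.9 in CNV (log2 0.87, SE 0.38, edgeR adjusted p 0.277). For both, CNV replicates 1 and 2 stood above all controls and CNV replicate 3 within their range. Without CNV replicate 3 the log2 fold changes were 0.79 and 1.09, with edgeR adjusted p of 0.0858 and 0.103. That omission was looked at after the values were seen, and 24 small RNAs were called in its fit, against 3 with all libraries. Without CNV replicate 1 the log2 fold changes were 0.37 and 0.59, with edgeR adjusted p of 0.720 and 0.663. In the same 3 CNV pools the photoreceptor markers summed to 34415, 24753 and 49508 CPM and the neuron markers to 10966, 7831 and 12498 CPM. Both were highest in replicate 3. The RPE markers summed to 6546, 5166 and 4573 CPM, the leukocyte markers to 1936, 1731 and 1339 CPM and the red cell markers to 3094, 2407 and 478 CPM. These were lowest in replicate 3. The controls had 1552, 1350 and 636 CPM of the red cell markers. The part of any of these cell types in the result was not tested.

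The His fragments did not all lean one way. The level of tRF-His-GTG-021 was 18.6, 16.7 and 15.5 CPM in control and 12.1, 14.7 and 14.1 in CNV, without overlap between the groups (log2 -0.31, SE 0.20, edgeR adjusted p 0.484). The rare tRF-His-GTG-012 was at 4.66, 5.46 and 6.13 CPM in control and 4.48, 3.78 and 2.24 in CNV, again without overlap (log2 -0.64, SE 0.30, edgeR adjusted p 0.322). Neither passed the test. The other 10 tRF-His had log2 fold changes from -0.60 to 0.41.

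**Figure D3:**
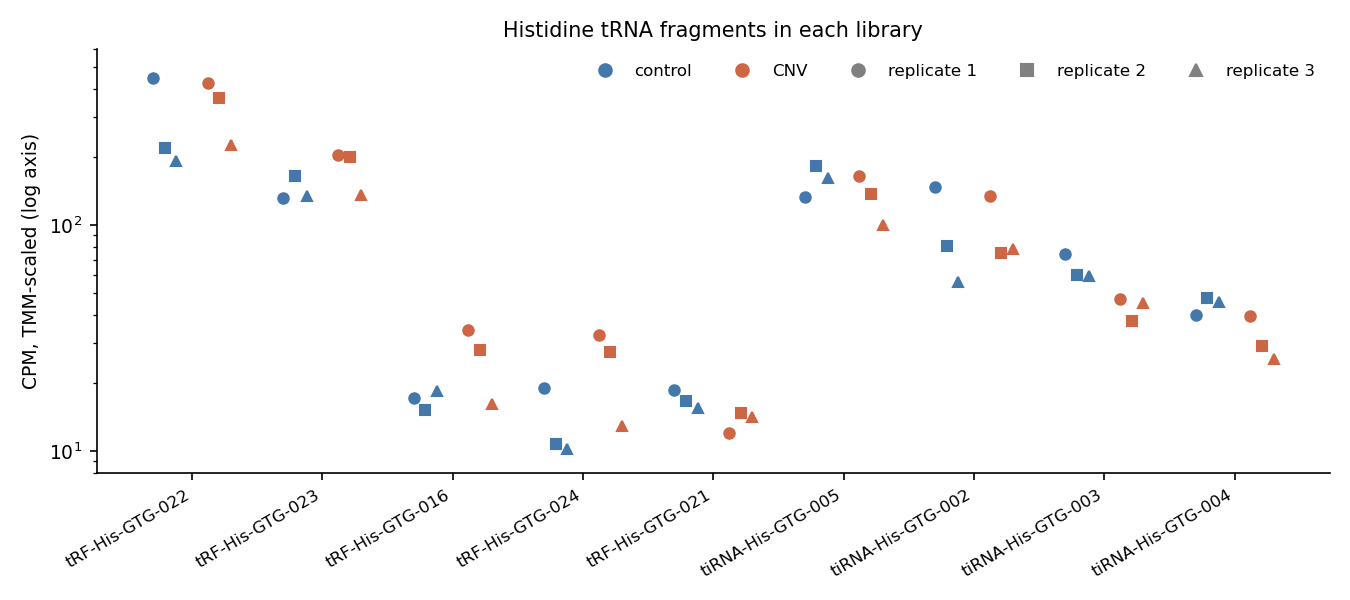
Level of 5 tRF-His and the 4 tiRNA-His in each library, in TMM-scaled CPM on a log axis. Blue points are control and orange points CNV pools, with shapes for replicates. In tRF-His-GTG-016 and tRF-His-GTG-024 the CNV pools of replicates 1 and 2 stand above all controls, and in tiRNA-His-GTG-003 and tiRNA-His-GTG-004 all CNV pools stand below all controls.

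Aspartate tRNA, whose nuclear form carries a mannose on its queuosine in mammals, gave the most fragment names. Of its 19 tRFs 16 were tested, 9 with positive and 7 with negative fold changes. The most abundant, tRF-Asp-GTC-033, was at 20.7, 15.8 and 21.4 CPM in control and 34.0, 29.7 and 21.1 in CNV (log2 0.56, SE 0.24, edgeR adjusted p 0.277). Here too CNV replicates 1 and 2 lay above the controls and CNV replicate 3 among them. The next, tRF-Asp-GTC-029, was lower on average, going from 17.6, 18.3 and 20.01 CPM to 14.6, 11.9 and 13.2, with no overlap between groups. Its log2 fold change was -0.49 (SE 0.20, interval -0.94 to -0.04, edgeR adjusted p 0.249), 1.40-fold lower in CNV. It was the single member with an unadjusted p under 0.05 that was lower.

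The abundances of these Asp fragments were alike while their fold changes differed in sign. The difference between them was not tested. The next in abundance, tRF-Asp-GTC-030, was at 19.7, 13.1 and 15.1 CPM in control and 13.2, 18.5 and 14.1 in CNV (log2 -0.06, SE 0.24). The fourth, tRF-Asp-GTC-034, was at 9.83, 8.56 and 9.60 CPM and 11.3, 10.7 and 4.81 (log2 -0.06, SE 0.32). The groups overlapped for both. Without CNV replicate 3 the fold change of tRF-Asp-GTC-034 was 0.16, and without control replicate 1 that of tRF-Asp-GTC-030 was 0.13.

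The smallest p of the members was that of a rare Asp fragment. The level of tRF-Asp-GTC-007 was 2.42, 2.30 and 2.25 CPM in control and 3.89, 3.38 and 3.78 in CNV, on 11 to 32 counts per library. The groups did not overlap, and the fold was 1.59 (log2 0.67, SE 0.26, interval 0.08 to 1.25, edgeR adjusted p 0.235). Another Asp fragment of few counts lay entirely above control, tRF-Asp-GTC-039, named after its values were seen (4.31, 3.59 and 5.72 CPM, then 5.84, 5.97 and 6.19). Its groups overlapped when libraries were scaled by total counts alone, while the groups of the other 5 such members stayed apart. The Asp fragments not named here had log2 fold changes from -0.17 to 0.58. The Asp tRFs together were at 118 ± 12.4 CPM of all counts in control and 116 ± 0.951 in CNV.

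Asparagine tRNA gave the least abundant set of the 4. Its 12 tRFs summed to 54.7 ± 6.24 CPM of all counts in control and 58.0 ± 5.25 in CNV, and 10 were tested, 7 with positive and 3 with negative fold changes. The most abundant, tRF-Asn-GTT-016, was at 10.9, 10.9 and 11.6 CPM in control and 11.3, 15.7 and 15.6 in CNV (log2 0.35, SE 0.22, edgeR adjusted p 0.468). Only CNV replicate 1 fell within the narrow control range. The level of tRF-Asn-GTT-009 was 3.80, 4.03 and 2.86 CPM in control and 5.45, 8.16 and 4.64 in CNV, with no overlap. It was 1.67-fold higher in CNV (log2 0.74, SE 0.30, interval 0.07 to 1.41, edgeR adjusted p 0.249), resting on 14 to 56 counts per library.

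The remaining Asn fragments named by abundance overlapped between the groups. The level of tRF-Asn-GTT-015 was 6.04, 7.05 and 11.2 CPM in control and 8.37, 10.7 and 6.53 in CNV (log2 0.09, SE 0.31). The values of tRF-Asn-GTT-003 were 5.35, 6.69 and 6.13 CPM and 7.78, 5.18 and 6.53 (log2 0.09, SE 0.24). Scaled by total counts alone, both were negative, at -0.05 and -0.06. The level of tRF-Asn-GTT-006 was 6.56, 4.82 and 3.68 CPM in control and 5.84, 7.96 and 5.85 in CNV (log2 0.38, SE 0.28, edgeR adjusted p 0.563). The other 5 tested Asn fragments had log2 fold changes from -0.35 to 0.39.

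In mammals the nuclear form of tyrosine tRNA carries a galactose on its queuosine, and its nuclear genes hold an intron. Tyrosine tRNA gave the set with the narrowest range of fold changes. Of its 12 tRFs 9 were tested, with log2 fold changes between -0.14 and 0.34 and no unadjusted p under 0.05. The most abundant pair, tRF-Tyr-GTA-021 and tRF-Tyr-GTA-009, were at like mean levels but differed in their spread between pools. The level of tRF-Tyr-GTA-021 was 32.8, 26.9 and 22.7 CPM in control and 27.0, 25.1 and 25.1 in CNV (log2 -0.09, SE 0.20). The values of tRF-Tyr-GTA-009 were 16.6, 32.3 and 27.6 CPM in control and 16.7, 20.3 and 42.6 in CNV (log2 0.06, SE 0.38). CNV replicate 3 was the highest pool for tRF-Tyr-GTA-009, control replicate 1 and CNV replicate 1 were low at nearly the same level, and the groups overlapped. Its fold change was -0.54 without CNV replicate 3.

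The fragment tRF-Tyr-GTA-012 had its lowest level in control replicate 1. It was at 4.83, 12.1 and 9.80 CPM in control and 6.62, 8.76 and 12.0 in CNV (log2 0.01, SE 0.37), and its sign changed with the scaling. In control replicate 1 the 3 skeletal muscle markers summed to 934 CPM, against 2734 to 4068 in the other pools. CNV replicate 1, the next lowest pool for tRF-Tyr-GTA-012, had 3366 CPM of these markers. The part of muscle in the result was not tested. The level of tRF-Tyr-GTA-025 was 13.5, 15.8 and 13.9 CPM in control and 19.1, 15.5 and 14.6 in CNV (log2 0.18, SE 0.21). The rare tRF-Tyr-GTA-023 and tRF-Tyr-GTA-004 had the smallest p of the set, with log2 fold changes of 0.34 (SE 0.26, edgeR adjusted p 0.573) and 0.29 (SE 0.29, edgeR adjusted p 0.671). The former was at 3.80, 3.88 and 5.31 CPM in control and 5.25, 4.58 and 6.36 in CNV. The latter was at 4.14, 3.24 and 4.70 CPM and 5.06, 5.77 and 3.61.

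The 8 members that the filter left out were 3 Asp, 2 Asn and 3 Tyr fragments, with 4 to 18 counts in the 5 shallower libraries and 16 to 38 in control replicate 2. Without a filter all 59 were tested and 0 were called (smallest edgeR adjusted p 0.0940, tRF-His-GTG-024). In that fit 88 of the 2334 listed small RNAs were called.

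The tables also name tiRNAs of these tRNAs, 4 of His and 2 of Asp, and none of Asn or Tyr. All 6 were tested and 0 passed (smallest edgeR adjusted p 0.186), with 2 of 6 at an unadjusted p under 0.05 in edgeR (background 17.8%), 2 in DESeq2 (17.2%) and 3 in limma-voom (17.4%). Those in edgeR were tiRNA-His-GTG-003 and tiRNA-His-GTG-004, both lower in CNV, and limma-voom added tiRNA-Asp-GTC-002, higher in CNV. The level of tiRNA-His-GTG-003 was 74.7, 60.1 and 59.6 TMM-scaled CPM in control and 47.1, 37.8 and 45.2 in CNV. The values of tiRNA-His-GTG-004 were 40.02, 47.7 and 45.7 CPM and 39.7, 29.3 and 25.4. For both all CNV pools lay under all control pools, for the latter by a narrow margin at replicate 1. Groups without overlap were thus found for 2 of the 6, both lower, against 20.4% of all small RNAs and 8.93% in that direction. These tiRNAs were 1.49-fold and 1.42-fold lower on average (log2 -0.58, SE 0.18, edgeR adjusted p 0.186, and log2 -0.50, SE 0.21, edgeR adjusted p 0.271). In DESeq2 the adjusted p of tiRNA-His-GTG-003 was 0.0647.

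The other tiRNAs overlapped between the groups. The level of tiRNA-His-GTG-005 was 134, 182 and 162 CPM in control and 165, 137 and 100.4 in CNV (log2 -0.25, SE 0.22), and its CNV pools lay under all controls when scaled by total counts alone. That of tiRNA-His-GTG-002 was 147, 80.5 and 56.2 CPM and 134, 75.4 and 78.1 (log2 0.02, SE 0.36), highest in control replicate 1 like tRF-His-GTG-022. The Asp tiRNAs were higher on average in CNV with wide spreads. The level of tiRNA-Asp-GTC-001 was 20.7, 6.11 and 7.96 CPM in control and 23.3, 22.9 and 10.5 in CNV (log2 0.72, SE 0.49, edgeR adjusted p 0.506). That of tiRNA-Asp-GTC-002 was 4.14, 1.44 and 1.63 CPM and 4.86, 5.57 and 2.92 (log2 0.95, SE 0.45, edgeR adjusted p 0.322).

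Set beside the tRFs, the tiRNAs made up a smaller part of the His fragments in CNV. Of the counts of tRF-His and tiRNA-His together, tiRNAs held 36.6%, 43.0% and 42.8% in control and 33.0%, 28.3% and 35.5% in CNV. The means were 40.8 ± 3.66% and 32.3 ± 3.66%, a difference of -8.51 percentage points with no overlap between the groups. The 95% Wilson interval of each pool's share was at most 1.59 points to either side and covers counting error only. The intervals of the closest pools overlapped, at 35.4% to 37.8% in control replicate 1 and 34.1% to 37.0% in CNV replicate 3. The difference was -10.6 to -6.52 points when single libraries were left out, -9.47 without tRF-His-GTG-022 and -6.35 without tiRNA-His-GTG-005. This share does not depend on how libraries are scaled. It was looked at after the values of the fragments were seen, and as a sum over them it was given no p. Of the Asp fragments, tiRNAs held 17.2%, 6.93% and 7.64% in control and 17.7%, 18.7% and 10.7% in CNV, with overlap.

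As a part of all tRNA-derived small RNAs (tsRNAs, tRFs and tiRNAs together), the 59 tRFs took less in CNV. They held 1.61%, 1.72% and 1.33% of tsRNA counts in control replicates 1 to 3 and 1.07%, 0.886% and 1.18% in CNV replicates 1 to 3. The means were 1.55 ± 0.204% and 1.04 ± 0.148%, and the groups did not overlap. The tsRNAs named Gly-CCC, by far the most abundant set, held 65.0 ± 3.65% of tsRNA counts in control and 75.1 ± 3.50% in CNV. With these taken out of the total, the 59 tRFs held 4.85%, 4.39% and 4.06% in control and 4.66%, 3.89% and 4.08% in CNV, and the groups overlapped. Against all counts of the library they were at 848 ± 185 CPM of all counts in control and 881 ± 102 in CNV. That difference of 33.0 CPM was -52.5 without control replicate 3 and 131 without control replicate 1.

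**Figure D4:**
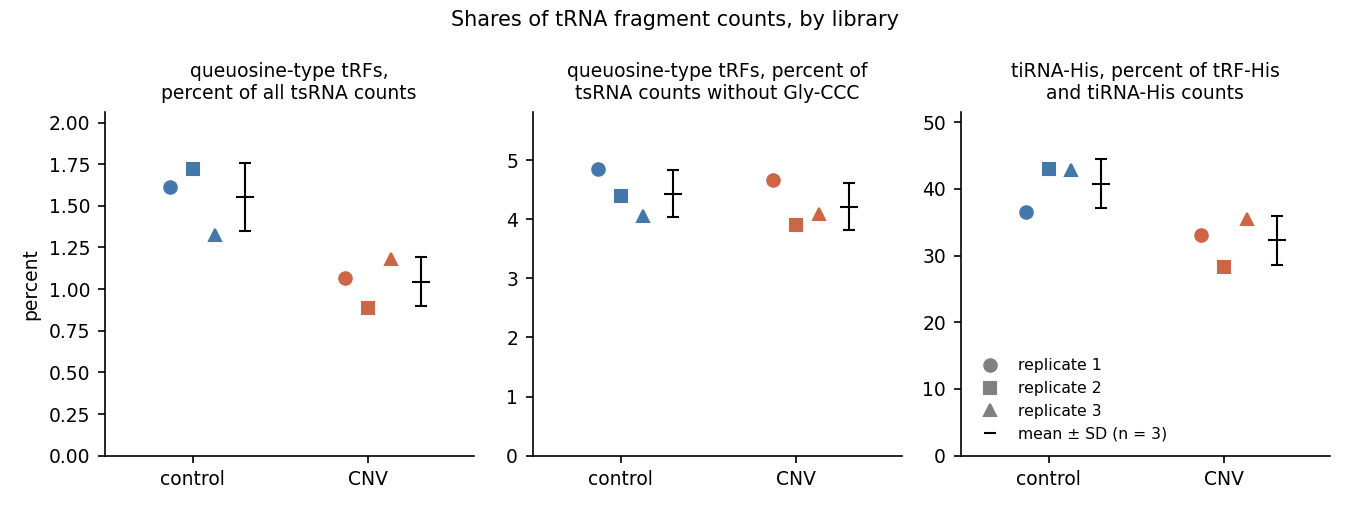
Percent of tsRNA counts held by the 59 tRFs, the same with the Gly-CCC fragments taken out of the total, and percent of His fragment counts held by tiRNAs (linear axes from 0). Points are pools and bars give mean ± SD. The groups are apart in the left panel, apart by a narrow margin in the right one, and overlap in the middle one.

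Within the 59 tRFs the mean division among the 4 tRNAs differed between the groups by less than the spread of the pools. Histidine held 66.5 ± 5.78% of their counts in control and 68.5 ± 6.67% in CNV, Asp 14.2 ± 2.09% and 13.3 ± 1.57%, Tyr 12.7 ± 2.82% and 11.6 ± 4.28%, and Asn 6.65 ± 1.47% and 6.64 ± 0.937%. The pools differed from one another more than the groups did. In CNV replicate 3 His held 60.9% and Tyr 16.5%, against 71.2% to 73.4% and 8.66% to 9.57% in the other CNV pools.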

How the data were processed

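Small RNA libraries with inserts of 14 to 40 nt were sequenced from 3 control and 3 CNV pools of 4 eyes each. The submitters' processing notes name Bowtie. No version, genome build, mismatch limit or rule for reads matching several tRNAs is stated in the sources used here. The authors' deposited tables give a read count per small RNA and a second column headed CPM, treated as a score because miRNAs and tsRNAs were divided by different totals. That deposited score was not tested; each of the 59 tRFs reached at least 20.4 in some library, so rarer fragments may not be listed.

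Counts of all miRNAs and tsRNAs were fitted together in R 4.3.3. Low counts were removed with filterByExpr of edgeR 4.0.16 (minimum count 10, minimum total 15). TMM factors and edgeR's quasi-likelihood test with no covariate followed, adjusted by Benjamini-Hochberg over all tested small RNAs at 0.05. Standard errors are the log2 fold change over the square root of the F statistic. DESeq2 1.42.0 and limma-voom (limma 3.58.1) were alternatives, with other scalings, filters, a replicate block and the omission of each library. The fits were tested on simulated data with planted changes of 2-fold or more and the same dispersion for every small RNA. Smaller changes, such as those of the members, were not planted, so their recovery is not known. No pair of replicates agreed within sampling noise (chi-square per degree of freedom at least 79.5), and no member had counts identical to another small RNA.

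The text names, for each tRNA, the 4 most abundant members, the 3 with the smallest p, any member called, members of at least 10 CPM whose groups do not overlap, and all tiRNAs of these tRNAs. The members, lists and this rule were chosen with earlier results of these data known. Fragment sequences were not used here.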

Additional observations from a re-analysis of the deposited data

How the results depend on the processing

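Under none of the 14 alternatives was a member or a tiRNA of these tRNAs called. With the replicate block, 0 members and 0 tiRNAs were called (smallest adjusted p 0.0856 for members and 0.116 for tiRNAs, by edgeR). The labels do not say whether the replicate numbers pair the pools. Same-numbered deviations correlated at 0.30, 0.03 and 0.18. The best matches of control replicates 1, 2 and 3 were CNV replicates 1, 3 and 3, which does not settle the question. Over all small RNAs edgeR made 3 calls, and 36 with the block, 38 by DESeq2 and 88 without a filter. Relative log expression factors gave 2, and total counts alone and limma-voom 3 each. With single libraries omitted there were 24 calls without CNV replicate 3, 4 without control replicate 1 and 0 in each other case. Testing tsRNAs alone also gave 0, as did a minimum mean of 20 CPM, which left 6 members and 4 tiRNAs to test. Where no small RNA was called, the lack of a called member says little about these fragments. The members' difference in percent of tsRNA counts was -0.509 points, from a mean of 1.55% in control to 1.04% in CNV. It was -0.301 without the most abundant member of each tRNA. With Gly-CCC fragments taken out of the total, an alternative chosen after seeing the data, it was -0.223 points. That value has another base, with means of 4.43% and 4.21% and overlapping groups, so its points are not comparable with the others.

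Of 374 log2 fold changes of named fragments under alternatives, 338 kept their sign and 36 changed it, in 9 of the 28 named fragments. The cause was not tested. Scaled by total counts alone, tRF-Asn-GTT-003 was at -0.061, tRF-Asn-GTT-015 at -0.049, tRF-Tyr-GTA-009 at -0.050, tRF-Tyr-GTA-012 at -0.11 and tiRNA-His-GTG-002 at -0.18. With tsRNAs scaled and tested alone, tRF-Tyr-GTA-009 was at -0.023, tRF-Tyr-GTA-012 at -0.075, tRF-Asn-GTT-015 at -0.0064 and tiRNA-His-GTG-002 at -0.055. Relative log expression factors gave -0.012 for tRF-Tyr-GTA-012 and -0.0241 for tiRNA-His-GTG-002, and DESeq2 gave -0.0045 and -0.0243. For tRF-Tyr-GTA-009, limma-voom gave -0.030 and the replicate block -0.0076. Without a filter, tRF-Tyr-GTA-009 was at -0.010, tRF-Tyr-GTA-012 at -0.054 and tiRNA-His-GTG-002 at -0.087, the last at -0.026 with a minimum mean of 20 CPM.

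Leaving out single libraries gave -0.063 to 0.18 for tRF-Asn-GTT-003, -0.16 to 0.33 for tRF-Asn-GTT-015, -0.54 to 0.29 for tRF-Tyr-GTA-009, -0.31 to 0.25 for tRF-Tyr-GTA-012, -0.25 to 0.060 for tRF-Tyr-GTA-021, -0.29 to 0.13 for tRF-Asp-GTC-030, -0.27 to 0.16 for tRF-Asp-GTC-034, -0.037 to 0.72 for tRF-His-GTG-022 and -0.31 to 0.49 for tiRNA-His-GTG-002. Of the 51 tested, 26 lay under 5 CPM, with a median SE of 0.35 (0.25 to 0.59), and 25 at or above it, with 0.28 (0.20 to 0.38). What depth and spread between pools each add to these was not tested.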
